A study of Mus musculus with 10 samples.

Results

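The 8 genes described here are Boc, Cdon and Gas1, which encode Hedgehog coreceptors, Hhat, Disp1 and Scube2, which act in making and releasing the ligand, and Gpr161 and Kif7, which act in the primary cilium of the responding cell. They were taken by gene symbol from the platform annotation, and all 8 were found, among 18193 genes, on 16 of the 45037 probe sets. Where several probe sets name a gene, the one highest on average over the 10 arrays stands for it, and the others serve as a check. The 2 groups are denervated lower incisors, sampled 2 weeks after resection of the inferior alveolar nerve on that side, and the contralateral lower incisors of the same animals (5 arrays each). All mice were wild-type C57BL/6J at postnatal day 60, and the tissue was labelled incisor dental mesenchyme, from which total RNA was taken. The operation was on 1 side, no sham-operated incisors were analysed here, and so the loss of the nerve and the operation itself cannot be told apart.

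Hedgehog ligands are made as precursors that are cut and given a fatty acid and a cholesterol, and they need dedicated proteins to leave the cell that makes them. On the receiving cell, PTCH1 holds SMO inactive until ligand binds PTCH1 together with a coreceptor, and SMO then acts in the primary cilium to change how GLI transcription factors are processed. In the mouse incisor, SHH comes from the dental epithelium, and from the nerve beside the vessels in the proximal mesenchyme, where GLI1-positive stem cells lie. The study's comparison asks which transcripts of the mesenchyme may depend on factors that the nerve supplies.

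The values are log2 intensities, and the median of an array lay between 1.48 and 1.54. No detection calls come with them, so a value near the low end of the scale cannot be told from background. Of the 16 probe sets, 6 had a mean below 2, each a second or further probe set of its gene. In bulk tissue, fewer cells of a type and less RNA per cell cannot be told apart. The standard error of a difference had a median of 0.10 over all genes, which the number of arrays limits. Arrays of equal number were taken as the incisors of 1 mouse, called mice 1 to 5, because Xist matched within all 5 numbers and same-numbered arrays deviated together (processing section). Denervated arrays 2 and 3 stand apart. In denervated array 2 the Schwann cell score, the mean of log2 values centred per gene over 8 markers, was 2.22, against -0.49 to 0.00 in the contralateral incisors. In denervated array 3, 10 of 13 dental epithelium markers had their lowest value of the 10 arrays. The epithelium score, made in the same way, ran from -2.48 to 0.52 in the denervated incisors and from -0.07 to 0.59 in the contralateral incisors. The other 4 denervated arrays lay between 0.15 and 0.52. Of the defining markers, the enamelin gene Enam was at 0.82 in that array, near the low end, and the ameloblastin gene Ambn at 9.61.

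None of the 8 genes passed limma's test between denervated and contralateral incisors after Benjamini-Hochberg adjustment over all 18193 genes. Their adjusted p-values lay between 0.794 and 0.987, or between 0.531 and 0.966 with the mouse as a block. The share of all genes called is 0%, so this holds for every gene tested. At an unadjusted p under 0.05 there were 0 of the 8 genes, against 6.21% of all genes. With the mouse as a block it was again 0, against 9.92% of all genes. The groups overlapped in all 8 genes, and over all genes 0.951% had groups that do not overlap. The mean difference, denervated minus contralateral, was above 0 in 4 genes and below 0 in 4, with a median of 0.01, while 55.8% of all genes were above 0 with a median of 0.02. The 95% confidence intervals of the 8 genes all lay between -0.48 and 0.36 on the log2 scale, which is 0.717-fold to 1.28-fold. For the genes with low values, log2 differences of such arrays are compressed, so their intervals describe the measured scale only.

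**Figure D1:**
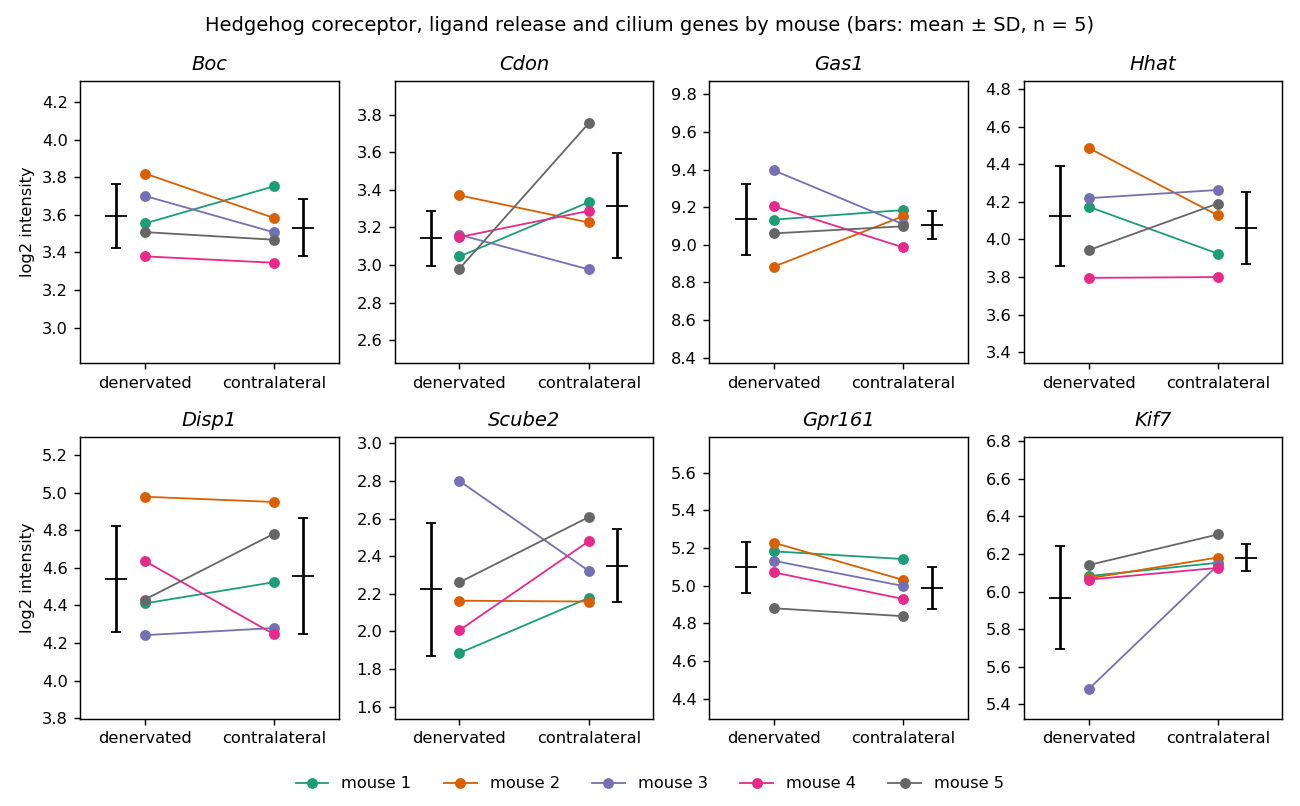
Log2 intensity of the 8 genes in each array (y axis, 1.5 log2 units in every panel), denervated left and contralateral right, with a line for each mouse and the mean ± SD of each group beside it (n = 5). The groups overlap in every panel, Gpr161 is higher and Kif7 lower in the denervated incisor of all 5 mice, and denervated array 3 stands below the rest in Kif7.

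Hhat encodes the acyltransferase that adds palmitate to the Hedgehog ligand in the secretory pathway. It had 4.17, 4.49, 4.22, 3.80 and 3.94 in denervated arrays 1 to 5, and 3.92, 4.13, 4.26, 3.80 and 4.19 in contralateral arrays 1 to 5. The groups overlap, the highest value is denervated array 2, and mouse 4 is lowest on both sides. Denervated incisors averaged 4.12 ± 0.27 and contralateral incisors 4.06 ± 0.19 (SD, n = 5), and the difference was 0.06 (95% confidence interval -0.23 to 0.36). The denervated incisor was higher in 2 of 5 mice, by 0.25 in mouse 1 and 0.36 in mouse 2. The second probe set of Hhat, with a mean of 1.05, differed by -0.08.

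Disp1 encodes Dispatched, the membrane protein that lets cholesterol-bearing ligand leave the producing cell. It had 4.41, 4.98, 4.24, 4.64 and 4.43 in denervated arrays 1 to 5, and 4.52, 4.95, 4.28, 4.25 and 4.78 in contralateral arrays 1 to 5. Mouse 2 was the highest on both sides, and the groups span nearly the same range. The difference was -0.02 (95% confidence interval -0.38 to 0.35), and with the mouse as a block the interval narrowed to -0.26 to 0.23. Within mice the differences ran from -0.35 in mouse 5 to 0.39 in mouse 4. Leaving out 1 array changed the sign in 5 of 10 cases, and a second probe set, with a mean of 1.74, differed by 0.12.

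Scube2 encodes a secreted protein that takes up the released ligand and keeps it soluble. It had 1.89, 2.16, 2.80, 2.01 and 2.26 in denervated arrays 1 to 5, and 2.18, 2.16, 2.32, 2.48 and 2.61 in contralateral arrays 1 to 5. These values are low on the scale. The highest of all 10 is denervated array 3, the array low in epithelium markers. The means were 2.22 ± 0.35 and 2.35 ± 0.19 in denervated and contralateral incisors (SD, n = 5). The difference was -0.13 (95% confidence interval -0.48 to 0.23). Without denervated array 3 it was -0.27, with an unadjusted limma p of 0.0416 and an adjusted p of 0.924. In that fit 970 of 18193 genes had an unadjusted p under 0.05. The part of the low epithelium in the value of that array was not tested.

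Gas1 encodes a protein held to the membrane by a lipid anchor, which binds ligand and promotes signalling. It had a high level, with 9.13, 8.88, 9.40, 9.20 and 9.06 in denervated arrays 1 to 5 and 9.18, 9.15, 9.11, 8.99 and 9.10 in contralateral arrays 1 to 5. The denervated arrays spread more widely on both sides of the contralateral ones, with SDs of 0.19 and 0.08 in denervated and contralateral incisors. The highest value came from denervated array 3 and the lowest from denervated array 2. The difference was 0.03 (95% confidence interval -0.17 to 0.23). It was -0.04 without denervated array 3 and 0.09 without denervated array 2.

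Boc and Cdon encode related transmembrane proteins of the immunoglobulin superfamily that bind Hedgehog ligand and PTCH1. Boc had 3.55, 3.82, 3.70, 3.38 and 3.51 in denervated arrays 1 to 5, and 3.75, 3.58, 3.51, 3.35 and 3.47 in contralateral arrays 1 to 5. The denervated incisor was higher in 4 of 5 mice, and the difference was 0.06 (95% confidence interval -0.16 to 0.28). A second probe set with nearly the same mean (3.53 against 3.56) went the other way, at -0.15 ± 0.20 (SE), lower in 4 of 5 mice. The pair had the same sign in mice 1 and 3 only, so these arrays settle no direction for Boc.

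Cdon had 3.05, 3.37, 3.16, 3.15 and 2.98 in denervated arrays 1 to 5, and 3.33, 3.23, 2.98, 3.29 and 3.75 in contralateral arrays 1 to 5. The denervated incisor was lower in 3 of 5 mice, most in mouse 5, where it differed by -0.77. The difference over all arrays was -0.17 (95% confidence interval -0.46 to 0.11). It was -0.06 without contralateral array 5, the highest value of the 10. The second Cdon probe set had a mean of 0.79, too low to serve as a check.

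**Figure D2:**
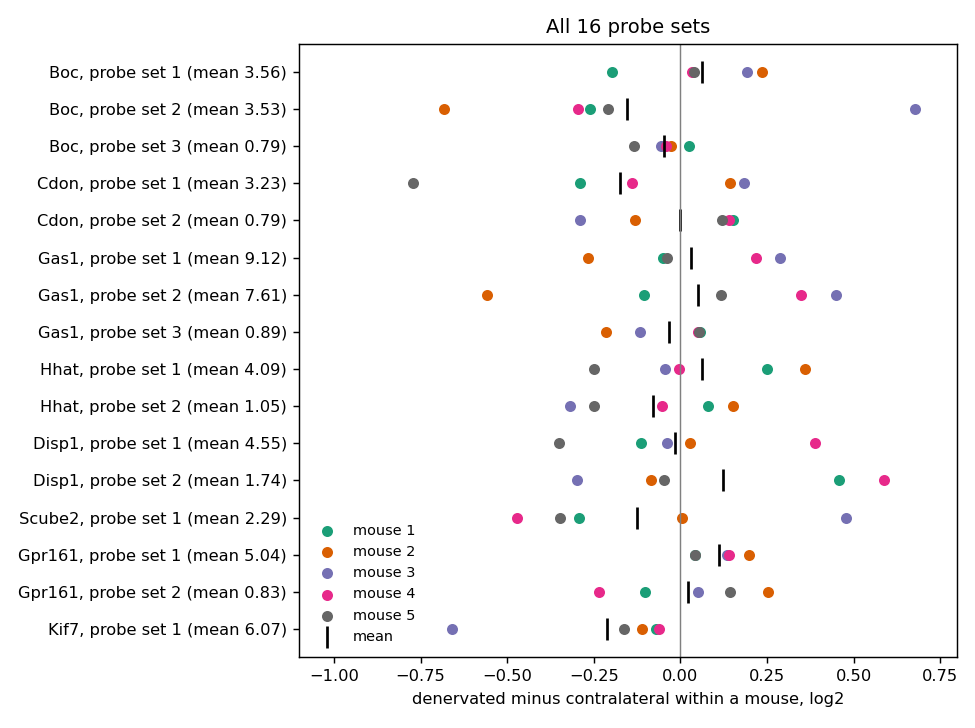
Within-mouse differences, denervated minus contralateral (x axis, log2), for all 16 probe sets in order of their mean log2 intensity within each gene, with a point for each mouse and a bar for the mean. Points fall on both sides of 0 in 14 probe sets; the first probe set of Gpr161 lies wholly above 0 and that of Kif7 wholly below.

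Gpr161 encodes an orphan receptor of the primary cilium that raises cyclic AMP and so favours the repressor forms of GLI factors. It had 5.18, 5.23, 5.13, 5.07 and 4.88 in denervated arrays 1 to 5, and 5.14, 5.03, 5.00, 4.93 and 4.84 in contralateral arrays 1 to 5. The denervated incisor was higher in all 5 mice, by 0.04 to 0.20, while mouse 5 was lowest on both sides and the groups overlap. The means were 5.10 ± 0.14 and 4.99 ± 0.11 in denervated and contralateral incisors (SD, n = 5). The difference was 0.11 (95% confidence interval -0.07 to 0.30), or 1.08-fold, with an adjusted limma p of 0.822. With the mouse as a block the interval was -0.04 to 0.26 and the adjusted p 0.587. A second probe set, with a mean of 0.83, differed by 0.02, higher in 3 of 5 mice.

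Kif7 encodes a kinesin of the cilium tip that organizes GLI factors and their inhibitor SUFU there. It had 6.08, 6.07, 5.48, 6.06 and 6.14 in denervated arrays 1 to 5, and 6.15, 6.18, 6.14, 6.13 and 6.30 in contralateral arrays 1 to 5. The denervated incisor was lower in all 5 mice, with -0.66 in mouse 3 and values from -0.16 to -0.06 in mice 1, 2, 4 and 5. The difference was -0.21 ± 0.12 (SE), with a 95% confidence interval of -0.48 to 0.05, a fold of 0.863 and an adjusted limma p of 0.794. With the mouse as a block the interval was -0.45 to 0.02 and the adjusted p 0.531. When denervated array 3 was left out, the difference was -0.09, with an adjusted p of 0.931. Kif7 has 1 probe set here, so its direction was not checked on another.

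Gpr161 and Kif7 are thus 2 of 8 genes with the same sign in all 5 mice, 1 higher and 1 lower. Of all genes, 10.4% had this, 6.58% higher and 3.8% lower. Sign flips of 5 differences cannot give an exact two-sided p below 0.0625.

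**Figure D3:**
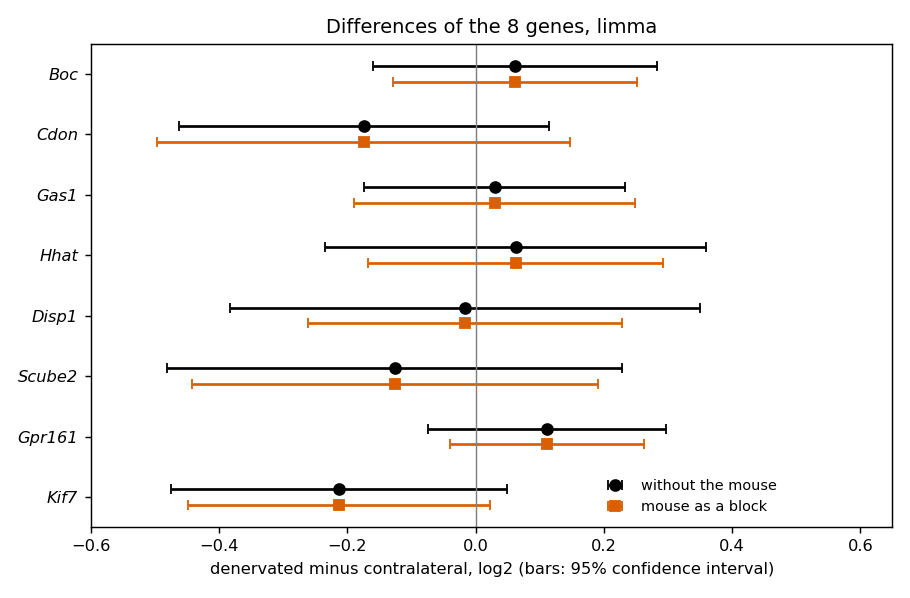
Difference of each gene, denervated minus contralateral (x axis, log2), with the 95% confidence interval of limma's fit without the mouse (circles) and with the mouse as a block (squares), n = 5 arrays per group. All 16 intervals include 0, and with the block 6 of the 8 genes have the narrower one.

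The mouse accounted for a varying part of the spread. For Gpr161 the mean of both incisors had an SD of 0.12 over the 5 mice, and the within-mouse difference an SD of 0.07. For Cdon the SD of the mouse means was 0.11 and that of the within-mouse differences 0.39, and for Disp1 the same SDs were 0.26 and 0.27. A difference has a wider scale than a mean, so these SDs are not to be compared as printed. Put on the same scale, the mouse means had the larger SD in 6 of the 8 genes, all but Cdon and Gas1. The mouse as a block narrowed the interval in Boc, Disp1, Hhat, Scube2, Gpr161 and Kif7 and widened it in Cdon and Gas1.

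Denervated array 3 held the lowest value of the 10 arrays in Kif7 and Disp1 and the highest in Gas1 and Scube2. In the same array the dental mesenchyme score, over 12 patterning factor genes, was 0.25, the highest of the 10, where the denervated arrays ran from 0.01 to 0.25 and the contralateral ones from -0.22 to 0.01. The ligand gene Shh, a product of the dental epithelium, had 9.69 in that array and between 10.54 and 10.83 in the other denervated arrays, against 10.64 to 10.96 in the contralateral ones. By the probe sets that stand for the genes, denervated array 2 held the highest value in Boc, Hhat, Disp1 and Gpr161 and the lowest in Gas1. The second probe set of Boc had its highest value in denervated array 3, at 4.18, and 3.27 in denervated array 2. There the endothelium score over 8 markers was 0.54, with 5 of 8 markers at their highest, and the Schwann cell score over 8 markers was 2.22, with 7 of 8 at their highest. The endothelium score ran from -0.28 to 0.54 in denervated and from -0.21 to 0.07 in contralateral incisors. The Schwann cell score ran from -0.46 to 2.22 in denervated and from -0.49 to 0.00 in contralateral incisors. No endothelium or Schwann cell marker was below 2 in denervated array 2. The pericyte and smooth muscle score was 0.85 in that array, with 5 of 8 markers at their highest. That score ran from -0.17 to 0.85 in denervated and from -0.39 to -0.03 in contralateral incisors. The odontoblast score was -0.62 there, with 4 of 7 markers at their lowest, and ran from -0.62 to 0.25 in denervated and from 0.04 to 0.19 in contralateral incisors. The macrophage score was 0.62 in denervated array 2 and 0.63 in denervated array 3, in a range of -0.07 to 0.63 in denervated and of -0.37 to -0.11 in contralateral incisors. All 10 macrophage markers had a mean difference above 0, and 8 of them were higher in the denervated incisor of 5 of 5 mice. Of all genes, 55.8% were above 0 and 6.58% were higher in 5 of 5 mice. After adjustment 0 of the macrophage markers passed. The part of these cell types in the values of the 8 genes was not tested. Without denervated arrays 2 and 3 together the difference was -0.05 for Boc, -0.09 for Hhat, 0.06 for Gpr161, -0.09 for Kif7 and -0.30 for Scube2.

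**Figure D4:**
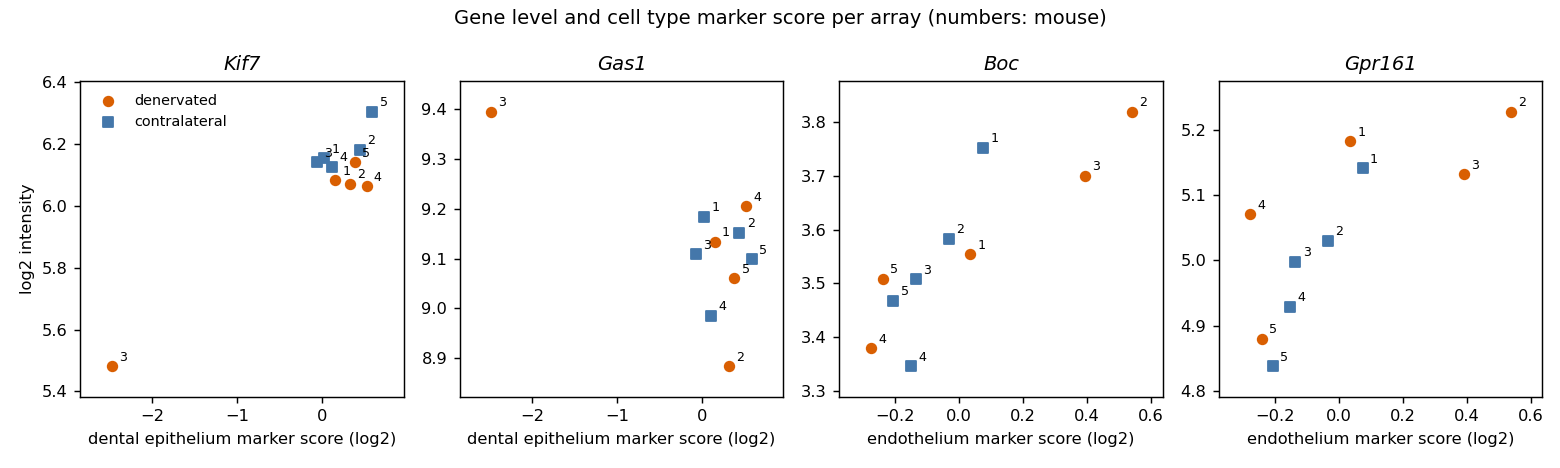
Log2 intensity of Kif7 and Gas1 against the dental epithelium score, and of Boc and Gpr161 against the endothelium score, in each of the 10 arrays (circles denervated, squares contralateral, numbers give the mouse). Denervated array 3 lies alone at an epithelium score of -2.48, low in Kif7 and high in Gas1. Arrays with higher endothelium scores mostly have higher values of Gpr161 and of the first Boc probe set, the one drawn. The second Boc probe set, not drawn, was at 3.27 in denervated array 2, in a range of 3.09 to 4.18. Pairs of other genes and scores are not drawn. Pearson's r with the endothelium score was 0.86 for the first Boc probe set and 0.76 for Gpr161. In the same order it was 0.77 and 0.65 with the Schwann cell score. It was 0.65 and 0.59 with the pericyte and smooth muscle score, and 0.55 and 0.59 with the macrophage score.

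By Pearson's r over the 10 arrays, among genes with a mean of at least 4, the most similar patterns were as follows. They are descriptions, since the arrays come in pairs from 5 mice and the best of 7779 or 7778 candidates is high in any case. Boc, by its first probe set only, was closest to Capns1, Cav2 and Mpdu1 (r = 0.96, 0.95 and 0.95). Of these, Cav2 encodes a caveolin, a protein of membrane pits. Gpr161 was closest to Sh3bgrl3, Bad and Fbxl7 (r = 0.95 each). For Boc and Gpr161, r stayed at 0.91 or above without the 2 arrays farthest from the gene's median. Disp1 was closest to Ppa2, Mt1 and Smad3 (r = 0.92, 0.90 and 0.90), where Smad3 encodes a transducer of TGF-beta signals, and Hhat to Vps35l, Skap2 and Rab11b (r = 0.89, 0.88 and 0.87). Without their own 2 farthest arrays r was 0.94, 0.81 and 0.90 for Disp1 and 0.80, 0.77 and 0.81 for Hhat.

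Kif7 was closest to Celsr1, Rhob and Srgap1 (r = 0.98 each), of which Celsr1 encodes an epithelial planar polarity cadherin. These relations rest on few arrays, since without denervated array 3 and contralateral array 5, the 2 farthest from the median of Kif7, r was 0.45, 0.42 and 0.56. Gas1 was closest to Nkap, Ubtd2 and Polk (r = 0.93 each), with r of 0.78, 0.68 and 0.68 without its 2 farthest arrays. Cdon was closest to Dhx40, Srsf4 and Dusp11 (r = 0.91, 0.85 and 0.85) and Scube2 to Coq2, Gramd3 and Vkorc1 (r = 0.90, 0.88 and 0.87). Without the 2 farthest arrays, r fell to 0.62, 0.73 and 0.53 for Cdon and to 0.72, 0.83 and 0.66 for Scube2. Among the 8 genes themselves, the pair with the highest r was Boc and Gpr161 at 0.69 and the lowest was Gas1 and Kif7 at -0.64.

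The other genes of the pathway were read in lists, for each of which 0 genes passed the adjusted threshold. Of all 18193 genes, for comparison, 55.8% were above 0 and 6.21% had an unadjusted limma p under 0.05. Of the Hedgehog ligands, receptors and GLI factors, 7 of 10 measured genes were above 0 with a median of 0.03, and 4 of 10 without denervated array 2. At an unadjusted p under 0.05 there was 1, Sufu, which encodes the GLI inhibitor, at 0.29 ± 0.08 (SE), with 1 of its 3 probe sets in this direction. Shh had the next smallest p at -0.33 ± 0.19 (SE), lower in 5 of 5 mice, with -1.15 in mouse 3 and values from -0.22 to -0.05 in the other mice. Without denervated array 3, the array low in epithelium markers, it was -0.14 ± 0.10 (SE). The receptor gene Ptch1 differed by 0.03, the transducer gene Smo by 0.04, the inhibitor gene Hhip by 0.06 and the target gene Gli1 by -0.04. Hhip was lower in the denervated incisor of 4 of 5 mice, by -0.73 to -0.01, and 1.65 higher in mouse 3. In mouse 3 it had 5.92 in the denervated array and 4.27 in the contralateral array, the lowest of the 10 arrays. Without denervated array 3 the difference was -0.08 for Hhip and 0.02 for Gli1.

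Among further genes of ligand release and of the matrix that carries ligand, 7 of 15 measured were above 0, with a median of -0.01. The relative of Scube2, Scube3, had 7.65, 7.71, 7.71, 7.62 and 7.78 in denervated arrays 1 to 5, and 7.96, 7.94, 7.85, 7.63 and 8.01 in contralateral arrays 1 to 5. It was lower in the denervated incisor of 5 of 5 mice, by -0.18 ± 0.08 (SE), with an adjusted limma p of 0.790. The groups overlap through contralateral array 4. Ext1, which encodes an enzyme that builds heparan sulfate, differed by 0.17 ± 0.08 (SE), higher in 4 of 5 mice.

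Genes of cilium transport and the transition zone were above 0 in 20 of 28, with a median of 0.06. After quantile normalization it was 14 of 28 with a median of 0.01, while the median of all genes went from 0.018 to 0.0045. Inpp5e, which encodes a phosphatase of cilium lipids, differed by 0.56 ± 0.24 (SE) and Ift57, a transport subunit gene, by -0.37 ± 0.17. Of the PKA and GLI processing genes 9 of 18 were above 0. Arrb2, which encodes an arrestin that binds active SMO, differed by 0.34 ± 0.10, higher in 5 of 5 mice, and Gsk3b, a kinase gene of GLI processing, by -0.23 ± 0.10. Each of these genes had an adjusted limma p of 0.790.

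The start regions of Gas1 and Kif7 are printed because these genes stood at opposite ends of their range in denervated array 3, high and low. Scube2 was likewise highest and Disp1 lowest in that array, and their windows are not printed. A relation of GC box counts to these levels was not tested. RefSeq start windows (GRCm38.p6, from 250 bases before to 50 after a start) were held for 7 of the 8 genes, all but Boc. Those of Cdon and Gpr161, and 1 window of Disp1, lie at later starts within the gene. Gas1 spans chr13:60174405-60177535 and Kif7 chr7:79698098-79715772, both on the minus strand, and the windows are at chr13:60177486-60177785 and chr7:79715658-79715957. Capitals mark the GC box, GGGCGG, read on both strands with overlaps counted.
Gas1: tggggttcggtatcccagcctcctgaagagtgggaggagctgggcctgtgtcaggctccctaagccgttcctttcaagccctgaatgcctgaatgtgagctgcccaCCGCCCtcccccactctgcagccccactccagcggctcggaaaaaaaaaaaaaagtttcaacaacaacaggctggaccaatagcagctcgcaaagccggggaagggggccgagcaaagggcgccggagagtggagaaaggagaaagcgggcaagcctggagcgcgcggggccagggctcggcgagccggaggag
Kif7: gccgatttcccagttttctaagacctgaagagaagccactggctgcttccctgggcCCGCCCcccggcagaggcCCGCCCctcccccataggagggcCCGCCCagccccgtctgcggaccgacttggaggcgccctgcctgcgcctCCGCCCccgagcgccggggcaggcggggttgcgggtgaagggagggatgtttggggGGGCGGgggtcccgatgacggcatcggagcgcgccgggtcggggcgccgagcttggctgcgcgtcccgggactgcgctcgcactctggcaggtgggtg
The window of Gas1 has 1 GC box and 62.3% G and C, and that of Kif7 has 5 and 74.0%. The Scube2 window also has 5, the Hhat window 1, and the other windows have 0, where 35.7% of all 32851 windows hold at least 1. The GLI motif GACCACCCA, read on both strands, was in none of the 9 windows of the 7 genes, and in 0.253% of all windows, so its absence says only that these letters are not there.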

How the data were processed

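Total RNA of 10 incisors was labelled with biotin and measured on 1-colour arrays of the mouse transcriptome. Per the labels, 1 column belongs to each array, and the values as deposited are on a log2 intensity scale, for which the submitters' processing notes name RMA without a version. Array medians near 1.5 are lower than RMA usually gives, and which variant or further step was used is not given in the sources used here. Differences between low values depend on it.

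Of 45101 probe sets, 64 controls were left out. Of the rest, 34945 name 1 gene symbol, 932 several and 9160 none. Of 18193 genes, 18032 matched a RefSeq gene by Entrez identifier, with 0 symbols differing. Denervated and contralateral arrays were compared with limma 3.58.1 in R 4.3.3 (lmFit, eBayes, threshold 0.05 after Benjamini-Hochberg adjustment over all genes). This fit leaves the mouse out; a further fit takes it as a block.

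The study's design names 5 mice. Over genes, deviations from the group means gave r of 0.18 to 0.57 for arrays of equal number (5 pairs). The other 20 pairs had r of -0.41 to 0.22. Of the 5 denervated arrays, 4 had their highest r with the contralateral array of their own number. Xist matched in all 5 numbers, high in 3 and low in 2, so the mice were of both sexes. This match cannot tell mice of 1 sex apart. On these grounds equal numbers were taken to mark a mouse.

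The 8 genes, the lists and the tests were chosen with earlier results of these data known. Named were all 8 genes, 2 genes of smallest p per list and 6 fixed pathway genes, and the 3 genes of highest r to each of the 8, clone names passed over. Listed genes without a value were not analysed here. Cell type scores used lists of 2 to 13 measured markers. Data were simulated for 18193 genes with independent normal noise and no pairing by mouse. At each of 0.5, 1, 1.5 and 2 log2 units, 50 genes with a mean above 4 were changed, all sizes together. The fit without the block recovered 48% of genes changed by 0.5 log2 units and 88% of those changed by 1. There were 9 false among 173 calls over all sizes. A gene changed alone, or 1 with a lower mean, as Boc, Cdon and Scube2 have, was not simulated. Alternatives changed the probe set rule, a filter on low values, the normalization, the centring, the variance moderation and the arrays used.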

Additional observations from a re-analysis of the deposited data

Results flagged for a closer look

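In 6 of the groups of 5 arrays examined, 1 array lay far from the other 4, by the gap to its nearest neighbour relative to the range of the group. Chance marks about 5% of groups in this way, and 60 groups were examined. Kif7 was at 5.48 in denervated array 3, below the other denervated arrays at 6.06 to 6.14. Shh was at 9.69 in the same array, below 10.54 to 10.83. Gli1 was at 4.91 in contralateral array 4, below 5.74 to 6.05. Neo1, which encodes a netrin receptor, was at 8.80 in contralateral array 4, below 8.95 to 9.01. The netrin receptor gene Unc5b was at 7.93 in denervated array 2, below 8.17 to 8.24, and at 8.12 in contralateral array 4, below 8.28 to 8.34.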

How the results depend on the processing

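Under 20 alternatives to the fit, 0 genes passed the adjusted threshold, with a smallest adjusted limma p of 0.234 in the fit with the replicate block. At an unadjusted p under 0.05 there were 721 to 1805 genes in the alternatives that tested all 18193. There were 535 of 7919 genes with a mean of at least 4, and 2411 of 45037 probe sets fitted on their own. With the block 1805 genes had an unadjusted p under 0.05, against 1129 without it, and the block changed no call. For the 8 genes the smallest adjusted p over all alternatives was 0.531. Cdon, Scube2, Gpr161 and Kif7 kept their sign in every alternative that gave them a value. When all probe sets of a gene were averaged, the difference was -0.047 for Boc, 0.053 for Disp1 and -0.0077 for Hhat. After quantile normalization it was -0.013 for Boc and -0.011 for Hhat, and without denervated arrays 2 and 3 together -0.050 for Boc and -0.090 for Hhat. Without both arrays of mouse 3, chosen after seeing the data, Gas1 was at -0.034 with or without the replicate block. Without denervated array 3, chosen after seeing the data for the other pathway genes, Hhip was at -0.080 and Gli1 at 0.023. The causes were not tested. Leaving out 1 array gave ranges of 0.00 to 0.12 for Boc, -0.26 to -0.06 for Cdon, -0.035 to 0.093 for Gas1, -0.13 to 0.082 for Disp1, -0.028 to 0.14 for Hhat, -0.27 to -0.04 for Scube2, 0.07 to 0.17 for Gpr161 and -0.26 to -0.09 for Kif7. The count above 0 of the ligand, receptor and GLI list ran from 4 to 8 when 1 array was left out, and was 4 without denervated arrays 2 and 3 together. That of the axon guidance list ran from 2 to 6, and was 2 without denervated arrays 2 and 3 together. With only genes of a mean of at least 4, fewer genes were tested: 2 of 5 axon guidance genes and 12 of 16 cilium genes were above 0, the median of the ligand release list was 0.072, and Boc, Cdon and Scube2 had no value. Scube2, Cdon and Boc had means of 2.29, 3.23 and 3.56, with no detection calls to set them against background.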

Other observations

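Boc, Cdon and Gas1 proteins also take part in axon guidance and in cell adhesion, with netrin receptors, cadherins and the receptor of the neurotrophic factor GDNF. Of 11 such genes measured, 4 were above 0 and 7 below, with a median of -0.06, where 55.8% of all genes were above 0. Of the 11, 3 had a mean below 2. At an unadjusted limma p under 0.05 there were 0, against 6.21% of all genes, and 0 passed after adjustment. The netrin receptor gene Neo1 had the smallest p of the list, at 0.13 ± 0.08 (SE), higher in 4 of 5 mice and in all 5 of its probe sets. Unc5b differed by -0.12 ± 0.08, lower in 4 of 5 mice.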
